A study of Ovis aries and Mus musculus with 10 samples.

Results

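A group of 6 microRNAs known as products of white blood cells was followed through the mammary gland of ewes and of CD1 mice. They are mmu-miR-223 for granulocytes, mmu-miR-142-3p and mmu-miR-142-5p for leukocytes in general, and mmu-miR-150, mmu-miR-155 and mmu-miR-342-3p for lymphocytes, written below without the mouse prefix. They were chosen by the miRNA name that the scanner files give to each spot, leaving out control spots, and are 6 of the 567 mouse miRNAs on the array. All 6 were among the 213 miRNAs tested, which were those detected on at least 3 arrays.

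MicroRNAs are short RNAs that repress the messenger RNAs they pair with, and some are made almost only in blood-forming lineages. The gland holds resident macrophages and lymphocytes, receives neutrophils with the blood, and changes its mix of epithelium, fat and stroma through pregnancy and milk production. In whole tissue, a miRNA of leukocytes therefore reads the leukocytes of the gland together with the blood left in its vessels. Fewer cells of a type and less RNA per cell cannot be told apart in such samples.

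The sheep samples were taken on day 15 of the cycle, on days 14, 64 and 125 of gestation and on day 60 of lactation. Those of mouse, from the outbred CD1 stock, were of virgin gland (day 0), days 10 and 17 of gestation and days 2 and 10 of lactation. No animal was treated, and the labels name no transgene, breed of sheep, age or pool of animals. Each stage and day had 1 array, so no value for a single day has a replicate check. The model below for changes within a species estimates its error from days that share a species and stage class. The model for species and for pooled stages also counts as error any difference between the species in their stage changes. Total RNA of frozen tissue was labelled with Cy3 and hybridised to a 1-colour Agilent array of mouse miRNA probes, for the sheep samples too. How well each probe pairs with the sheep miRNA was not examined here, so a difference between the species can hold a difference in pairing as well as in amount, and these cannot be told apart.

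Signals are given as a percentage of a scale set on each array, namely the 75th percentile over those 94 miRNAs that every array detected. That percentile was 788 to 1998 arbitrary units on the sheep arrays and 246 to 937 on the mouse arrays. The sheep arrays detected 156 to 208 miRNAs and the mouse arrays 125 to 198. For log2 levels and for the models, scaled signals below 2.90% were set to that floor, which is -5.11 on the log2 scale. Steps between neighbouring stages were taken without the floor, where the miRNA was well above background on both arrays. The 5 miRNAs of the epithelial miR-200 family and its relatives were detected on all 10 arrays. Mouse virgin and mouse gestation day 10 were hybridised on slide 2, all 8 further arrays were on slide 1, and each slide had its own scan. Levels of different miRNAs come from different probes and are not compared with each other.

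miR-223, miR-142-3p and miR-342-3p were detected on all 10 arrays, and their signals stood well above background on all of them. miR-142-5p was detected on 5 arrays and miR-150 on 4. miR-155 was detected on 4 arrays but lay under the floor on all 10. All 6 were detected at sheep gestation days 14 and 64 and at mouse gestation day 17, whereas on each lactation array of either species 3 were. Detection over all miRNAs differed in the same way. Of the 567 mouse miRNAs on the array, those gestation arrays detected 206, 208 and 198. The lactation arrays detected 156 in sheep and 144 and 125 in mouse. The opposite strands of 2 of the hairpins, miR-150* and miR-342-5p, were on the array and were detected on 0 arrays.

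**Figure D1:**
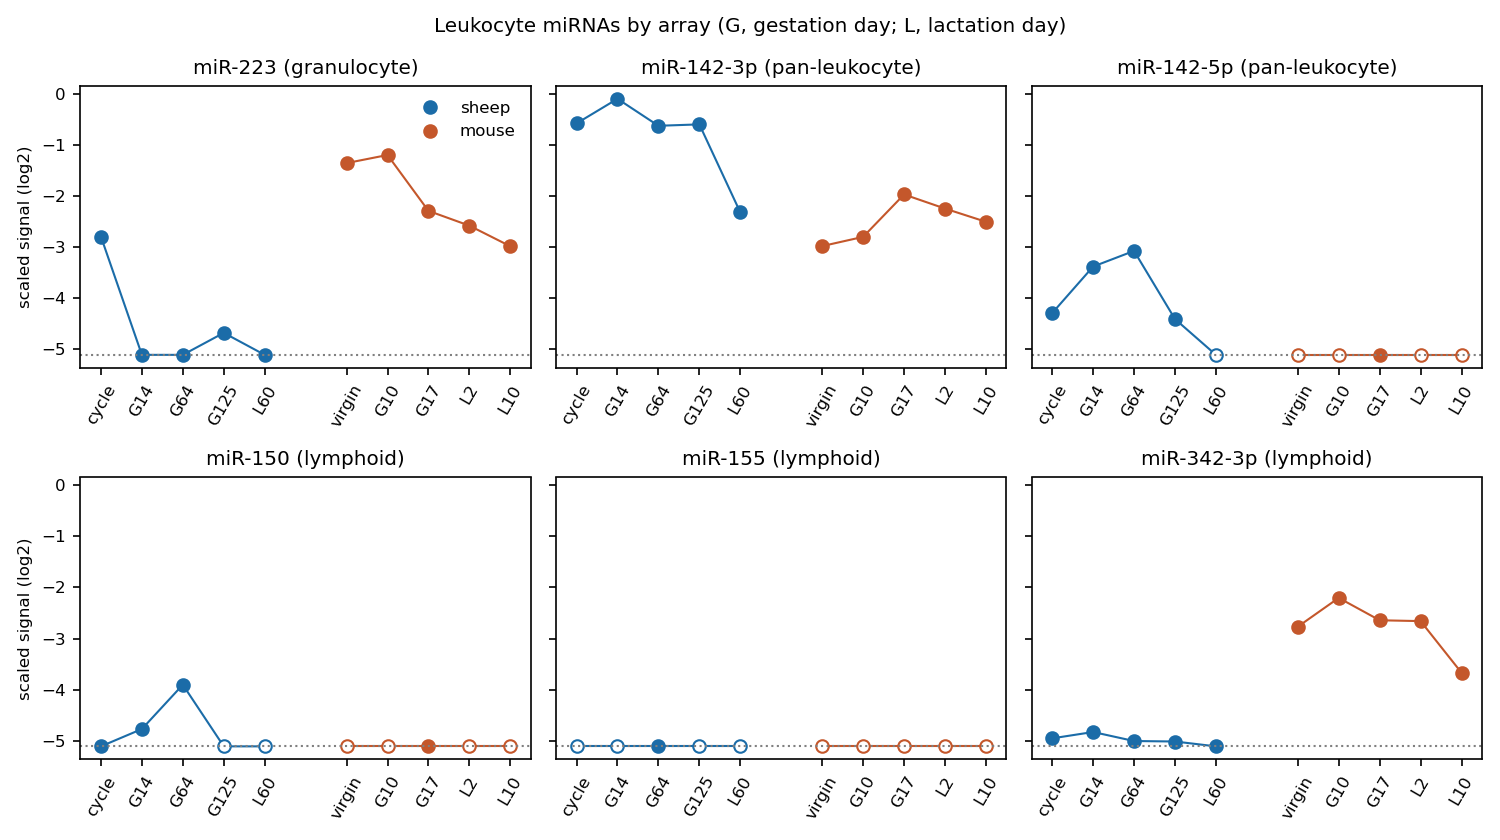
Scaled signal (log2) of each miRNA by array in stage order, sheep in blue on the left and mouse in orange on the right, with 1 point per array and the floor at -5.11 as a dotted line. Filled points are well above background and open points are not. miR-223 is high on the sheep cycle array alone among sheep arrays, miR-142-3p is lowest in sheep at lactation, and miR-342-3p lies higher on every mouse array than on any sheep array.

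miR-223, a miRNA of neutrophils and monocytes that restrains granulocyte production and activity in mice, was lower in sheep gland than in mouse gland. Among steps between neighbouring stages with the miRNA well above background on both arrays, it also had the largest of the 6, seen in sheep between the cycle and early gestation. Its 2 probes target mm9 chrX:93438224-93438244 in the mouse genome, over 21 and 20 bases, per the scanner files. Strand is not given there, and neither is a gene model, so no exon or intron is stated for any of the 6. Each probe of a member was spotted 10 times per array.

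In sheep, miR-223 stood at 14.4% of the scale in cycle, 2.23% at gestation day 14, 1.27% at day 64, 3.91% at day 125 and 2.47% at lactation day 60. In mouse it stood at 39.0% in virgin gland, 43.6% at gestation day 10, 20.4% at day 17, 16.7% at lactation day 2 and 12.6% at lactation day 10. The cycle value was the only sheep value within the range of the mouse values, and the other 4 sheep values lay below all mouse values. On the log2 scale the means were -4.56 ± 1.00 in sheep and -2.08 ± 0.78 in mouse (SD, n = 5 each), with 3 sheep arrays at the floor.

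The fitted difference, adjusted for stage class, was -2.59 ± 0.36 (standard error), a level 6.03-fold lower in sheep, with an adjusted p of 0.00293 by limma with Benjamini-Hochberg adjustment over the 213 miRNAs. Of those 213, 21.6% passed the same threshold of 0.05 in either direction, 8.45% higher and 13.1% lower in sheep. It also passed when each array in turn was left out, with values of -2.90 to -2.23, and stood at -2.51 with an adjusted p of 0.00297 on slide 1 alone. The probe with the longer target, well above background on all 10 arrays, had a log2 difference in mean signal of -2.84, not adjusted for stage class. On sheep gestation day 64 it read 26.1 units on a scale of 1561, under the floor, so the floor enters this value too. The other probe was not well above background on 3 sheep arrays and lay under the floor on every sheep array except cycle. Its difference of -1.41 is thus largely set by the floor and does not give the size of the change.

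The step of miR-223 between cycle and gestation day 14 in sheep was seen with both probes. Before scaling, the longer probe read 472 units in cycle and 26.1 to 58.3 on the other 4 sheep arrays, and the shorter read 103 in cycle and 11.9 to 23.2 on the others. Without the floor, gestation day 14 lay 2.69 ± 0.02 below cycle on the log2 scale, a 6.47-fold step. The error is between spots of the 2 arrays and covers no difference between animals. Among the 171 miRNAs measured on both arrays, 0.585% fell as far or farther. The next sheep steps were a further -0.81 ± 0.06 to day 64, a gain of 1.62 ± 0.08 to day 125 and -0.66 ± 0.08 to lactation, all with 1 array on each side. The values at gestation days 14 and 64 and at lactation lay under the floor, so each of these sheep steps would be smaller with it.

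In mouse, the largest step of miR-223 was at gestation day 17, which lay 1.09 ± 0.02 below day 10 in log2. Of the 128 miRNAs measured on both arrays, 8.59% fell as far or farther. The 2 arrays lie on different slides, so slide and day cannot be told apart for this step. The ratio of the longer to the shorter probe was 6.50 and 6.90 on the 2 arrays of slide 2 and 4.02 and 3.23 at mouse gestation day 17 and lactation day 2 on slide 1, and its part in the step was not tested.

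miR-142-3p, a strand of a hairpin expressed across blood cell lineages, was higher in sheep gland than in mouse gland, and its lowest sheep value was at lactation. Its probes target mm9 chr11:87570405-87570427, over 23 and 22 bases. In sheep it stood at 66.9% of the scale in cycle, 93.3% at gestation day 14, 64.7% at day 64, 66.0% at day 125 and 20.0% at lactation day 60. In mouse it stood at 12.7% in virgin gland, 14.4% at gestation day 10, 25.5% at day 17, 21.1% at lactation day 2 and 17.6% at lactation day 10. The 4 sheep arrays before lactation lay above every mouse array, and the sheep lactation array lay among the mouse arrays. Within lactation, sheep (20.0%) fell between the 2 mouse days (21.1% and 17.6%).

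The log2 means of miR-142-3p were -0.85 ± 0.85 in sheep and -2.50 ± 0.41 in mouse (SD, n = 5 each). The fitted difference was 1.51 ± 0.41, a level 2.84-fold higher in sheep, with an adjusted p of 0.0418 by limma. As differences in means, not adjusted for stage class, its 2 probes gave 1.63 and 1.71. The ratio of the longer to the shorter probe stayed between 2.02 and 2.31 over the 10 arrays. This call rested on which arrays and values entered: it was kept in 2 of 10 fits that each left out 1 array, those without sheep lactation and without mouse lactation day 2, and lost in the other 8, whose values were 1.24 to 1.59. With slide as a term the difference was 0.85 (adjusted p = 0.188) and on slide 1 alone it was 0.84 (adjusted p = 0.276).

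At lactation day 60 the sheep value of miR-142-3p lay 1.72 ± 0.02 below gestation day 125 in log2, a 3.30-fold step (error between spots). Of 117 miRNAs measured on both arrays, 6.84% fell as far or farther. Across stage classes, sheep lactation read -2.32 on 1 array, and sheep gestation -0.44 ± 0.30 (SD, n = 3). The fitted difference of -1.88 ± 0.41 did not pass the threshold (limma, adjusted p = 0.2). In mouse, lactation averaged -2.38 ± 0.18 and gestation -2.39 ± 0.59 (SD, n = 2 each), a difference of 0.01 ± 0.35. The test of the difference between those changes, sheep minus mouse, gave -1.89 ± 0.54 with an unadjusted p of 0.021 and an adjusted p of 0.504 by limma, so a difference between the species in the lactation change did not pass.

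miR-142-5p, from the other arm of the same hairpin, was well above background on the 4 sheep arrays before lactation and on 1 mouse array. Its probes target mm9 chr11:87570371-87570389, over 19 and 18 bases. In sheep it stood at 5.10% of the scale in cycle, 9.59% at gestation day 14, 11.9% at day 64, 4.71% at day 125 and 0.948% at lactation day 60, the last not detected. In mouse it stood at 1.1% in virgin gland, 1.19% at gestation day 10, 2.79% at day 17, 1.36% at lactation day 2 and 0.146% at lactation day 10. Of the mouse values, only that of gestation day 17 was detected, and all 5 lay under the floor.

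The sheep values of both arms of the hairpin were lowest at lactation, but their peaks differed, at gestation day 14 for miR-142-3p and at day 64 for miR-142-5p. Between day 64 and day 125, miR-142-5p changed by -1.33 ± 0.06 in log2 and miR-142-3p by 0.03 ± 0.02 (errors between spots). At sheep lactation miR-142-5p was at least 3.54-fold lower than in sheep gestation. This bound sets the mean of the 3 gestation arrays against the lowest signal of any single probe well above background on the lactation array, and its fitted difference of -1.49 ± 0.54 did not pass (limma, adjusted p = 0.441). The sheep minus mouse difference over all stages was 0.93 ± 0.35 and did not pass either (limma, adjusted p = 0.12).

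miR-342-3p, which is encoded within the Evl gene and is found in lymphocytes among other cells, was lower in sheep gland than in mouse gland on every array. Its probes target mm9 chr12:109896896-109896912, over 17 and 16 bases. In sheep it stood at 3.23% of the scale in cycle, 3.52% at gestation day 14, 3.12% at day 64, 3.10% at day 125 and 2.10% at lactation day 60. In mouse it stood at 14.7% in virgin gland, 21.7% at gestation day 10, 16.0% at day 17, 15.8% at lactation day 2 and 7.86% at lactation day 10. The lowest mouse value was above the highest sheep value, and 9.86% of the 213 miRNAs had all sheep arrays below all mouse arrays in this way, with 7.51% the other way round.

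The log2 means of miR-342-3p were -4.98 ± 0.10 in sheep and -2.79 ± 0.54 in mouse (SD, n = 5 each). The sheep values ran from the floor of -5.11 to -4.83, so their small spread is partly set by the floor. The fitted difference was -2.29 ± 0.23, a level 4.89-fold lower in sheep, with an adjusted p of 0.000562 by limma. It passed in all 10 fits that left out 1 array (-2.43 to -2.15) and on slide 1 alone (-2.14, adjusted p = 0.0139). The probe with the longer target gave a difference in means of -1.97, not adjusted for stage class and smaller than the fitted -2.29. For the other, the 5 sheep values were all at the floor, so its difference of -1.62 is set by the floor and does not give the size of the change.

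Within mouse, miR-342-3p at lactation day 10 lay 1.01 ± 0.07 below lactation day 2 in log2 (error between spots), a 2.01-fold step. Of the 97 miRNAs measured on both arrays, 4.12% fell as far or farther. Both lactation arrays lay below both gestation arrays in mouse, but the day 2 array and gestation day 17 differed by only 0.02 ± 0.04. The fitted change of mouse lactation against mouse gestation was -0.74 ± 0.38 (limma, adjusted p = 0.431), and it was -0.24 without lactation day 10.

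miR-150, which marks mature lymphocytes and represses Myb, was seen in sheep up to mid gestation and on 1 mouse array. Its probes target mm9 chr7:52377138-52377153, over 16 and 15 bases. In sheep it stood at 1.27% of the scale in cycle, 3.67% at gestation day 14, 6.68% at day 64, 0.920% at day 125 and 0.383% at lactation day 60. The first 3 of these were detected. In mouse the values were -0.224% in virgin gland, 0.415% at gestation day 10, 1.72% at day 17, 0.483% at lactation day 2 and -0.908% at lactation day 10, where a negative value is a signal under the local background. Only gestation day 17 was detected in mouse.

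The sheep value of miR-150 at gestation day 14 lay 1.53 ± 0.05 above cycle in log2, and day 64 lay a further 0.87 ± 0.03 above day 14 (errors between spots). The cycle value lay under the floor, so the first of these steps would be smaller with it. Of the miRNAs measured on both arrays, 6.43% and 16.0% gained as much or more in these steps. At sheep lactation it was at least 1.23-fold lower than the mean of the 3 sheep gestation arrays. That mean, taken without the floor, includes day 125, where miR-150 was not detected (0.920%), so no difference from day 125 is shown. With the floor the groups overlapped, and the fitted difference of -0.51 ± 0.48 did not pass. Sheep minus mouse was 0.26 ± 0.25 and lactation minus gestation over both species -0.24 ± 0.28, neither past the threshold (limma, adjusted p = 0.492 and 0.824).

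miR-155, which activated lymphocytes and macrophages make from the Bic transcript, was well above background on 1 of the 10 arrays. Its probes target mm9 chr16:84714393-84714410, over 18 and 17 bases. In sheep it stood at 0.159% of the scale in cycle, 0.442% at gestation day 14, 0.885% at day 64, -0.325% at day 125 and -0.170% at lactation day 60. In mouse it stood at 0.0767% in virgin gland, 1.42% at gestation day 10, 1.20% at day 17, -0.188% at lactation day 2 and -1.22% at lactation day 10. It was detected at sheep gestation days 14 and 64 and at mouse gestation days 10 and 17, and the array where it was well above background was that of sheep day 64. With all 10 values under the floor, no fold is given for it.

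**Figure D2:**
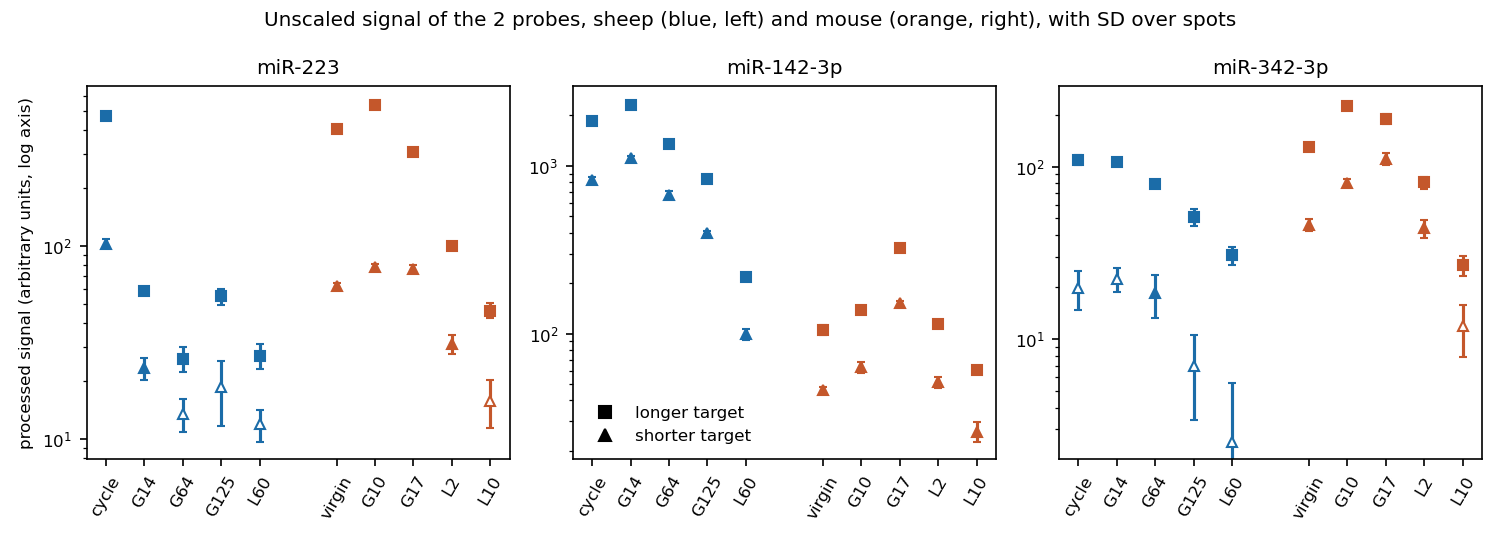
Processed signal before scaling (arbitrary units, log axis) of the 2 probes of miR-223, miR-142-3p and miR-342-3p on each array, sheep on the left and mouse on the right, as means with SD over spots. Squares are the probe with the longer target, triangles the other, and open symbols are not well above background. The longer probe is the brighter one throughout, and both probes of miR-223 are highest among sheep arrays in cycle (472 and 103 units).

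Over the 6 miRNAs, sheep against mouse gave 1 call higher (miR-142-3p) and 2 lower (miR-223 and miR-342-3p), that is 3 of 6 against 21.6% of all 213 tested. The granulocyte miRNA was thus lower in sheep and miR-142-3p of the leukocyte hairpin higher, a call kept in 2 of 10 fits that each left out 1 array. The other arm, miR-142-5p, also lay higher in sheep, by 0.93 ± 0.35, and did not pass. The median of the 6 differences was 0.13 and that of all 213 was 0.00. Without scaling, the median difference over all miRNAs was 0.69 higher in sheep and the calls over all miRNAs became 69 higher and 18 lower, against 18 higher and 28 lower with it. The signs of these 3 differences were the same without scaling, at 2.65 for miR-142-3p, -1.78 for miR-223 and -1.28 for miR-342-3p. Division by the 75th percentile of all miRNAs gave 23 higher and 23 lower, and quantile normalization 24 and 23.

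**Figure D3:**
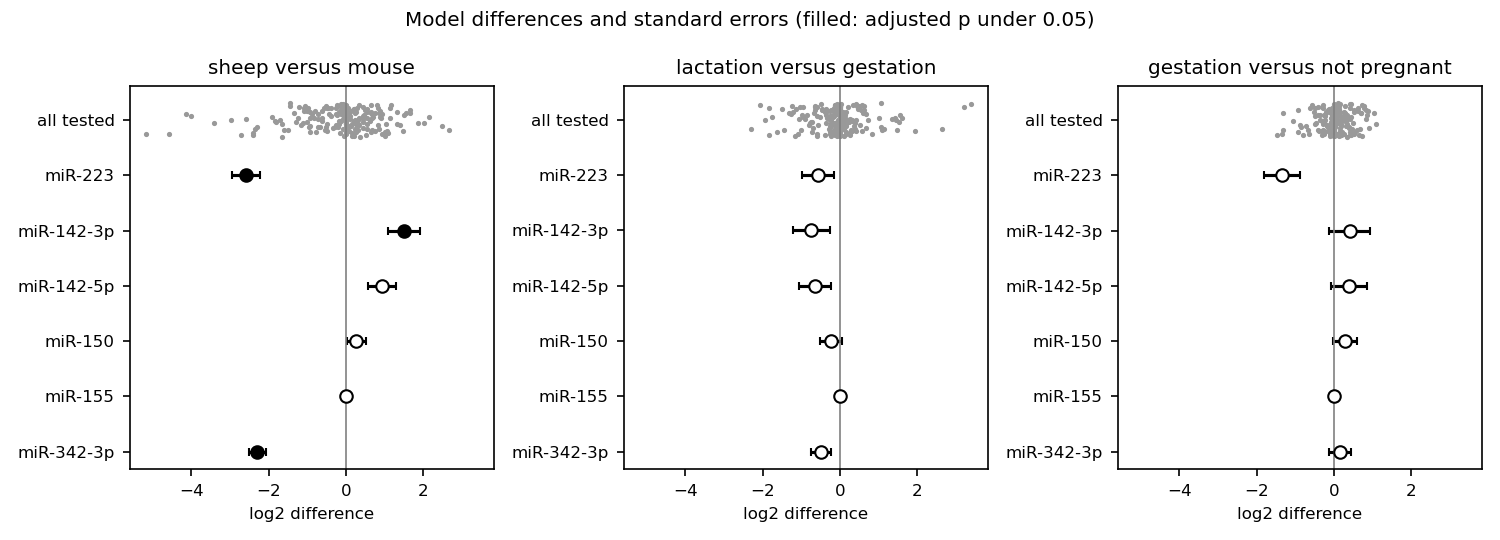
Fitted log2 differences (limma) of the 6 miRNAs with standard errors, for sheep minus mouse, lactation minus gestation and gestation minus not pregnant, with all 213 tested miRNAs as grey points in the top row. Filled points have an adjusted p under 0.05. In the species comparison 3 of the 6 passed, and in the other 2 comparisons none did.

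Across the stages, none of the 6 passed in the models over both species. For lactation against gestation, 0 of 6 passed with limma, whereas 2.82% of the 213 passed, 1.41% in each direction. The 213 include 28 that lay at the floor on all arrays, miR-155 among them, and the shares over all miRNAs depend on keeping these. Without them 15 miRNAs passed here, against 6. An unadjusted p under 0.05 was reached by 0 of 6 and by 34 of all 213. The fitted differences of 5 of the 6 were below 0: -0.74 ± 0.47 for miR-142-3p, -0.65 ± 0.41 for miR-142-5p, -0.57 ± 0.42 for miR-223, -0.48 ± 0.26 for miR-342-3p and -0.24 ± 0.28 for miR-150. Their adjusted p-values ran from 0.435 to 0.824, and the median over the 6 was -0.53 against -0.00 over all 213. These values hung on single arrays. Without sheep lactation, miR-142-3p was 0.090, miR-142-5p -0.12 and miR-150 -0.091. miR-150 was -0.072 without sheep gestation day 64, miR-223 was -0.19 without mouse gestation day 10, and miR-342-3p was -0.19 without mouse lactation day 10. Lactation averaged -3.56 ± 1.36 (SD, n = 3) for miR-223 and gestation -3.68 ± 1.81 (SD, n = 5), means that mix the species in unequal numbers, unlike the fit.

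The members whose lactation arrays lay below the gestation arrays differed in part between the 2 species, with miR-342-3p in both. Its gaps were small. In mouse, lactation day 2 stood at -2.66 and gestation day 17 at -2.64 in log2. In sheep, lactation was at the floor of -5.11 and gestation day 125 at -5.01. Mouse gestation day 10 lies on another slide than the other 3 mouse arrays compared here. In sheep, the lactation array lay below all 3 gestation arrays for miR-142-3p, miR-142-5p and miR-342-3p, 3 of 6 against 19.7% of all 213, with 11.3% lying above. In mouse, both lactation arrays lay below both gestation arrays for miR-223 and miR-342-3p, 2 of 6 against 19.7%. Within sheep 0 of 6 passed with limma, against 0.469% called over all miRNAs. An unadjusted p under 0.05 was reached there by 2 of 6 (miR-142-3p and miR-142-5p) and by 23 of all 213. Within mouse 0 of 6 passed, against 0.939%, and 0 of 6 had an unadjusted p under 0.05, against 32 of all 213. The difference between the species in the change from gestation to lactation was past the threshold for 0 of 6, against 0.939%. At an unadjusted p under 0.05 it held 1 member, miR-142-3p, and 16 of all 213. Leaving out sheep gestation day 125 brought miR-142-5p past the threshold within sheep, at -1.88 with an adjusted p of 0.0335.

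Against gland that was not pregnant, miR-223 was the member farthest below. In lactation it was lower by 1.91 ± 0.51 in log2 than in cycling ewes and virgin mice, with an unadjusted p of 0.00809 and an adjusted p of 0.0958 by limma. In gestation it was lower by 1.34 ± 0.46, with an unadjusted p of 0.0253 and an adjusted p of 1. Neither passed the threshold. The 2 arrays that were not pregnant held 14.4% of the scale in sheep and 39.0% in mouse, and in mouse the gestation day 10 array (43.6%) lay above the virgin array. On slide 1 alone, where sheep cycle is the only such array, both differences passed, at -2.44 (adjusted p = 0.0441) and -2.13 (adjusted p = 0.0374). Without sheep cycle they were -1.23 and -0.58, and without mouse virgin -2.70 and -2.04, none of them past the threshold.

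The other 5 differed from gland that was not pregnant by -0.33 to 0.04 in lactation and by 0.00 to 0.41 in gestation. For gestation 0 of 6 passed with limma and 1 had an unadjusted p under 0.05, against 0.469% called over all miRNAs. For lactation the count was also 0 of 6, with 1 at an unadjusted p under 0.05, against 3.76%.

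The 3 members that could be compared differed in their course over the stages. With the mean of each species taken out, Pearson's r over the 10 arrays was -0.03 between miR-223 and miR-142-3p, 0.46 between miR-223 and miR-342-3p and 0.11 between miR-142-3p and miR-342-3p. Among 107 miRNAs above the floor on at least 6 arrays, the course of miR-223 was most like those of miR-10a (r = 0.94), miR-324-5p (0.78) and miR-199b (0.76). That of miR-142-3p was most like miR-93 (0.75), miR-106b (0.70) and let-7c (0.67), and that of miR-342-3p most like miR-196a (0.86), miR-322 (0.83) and miR-331-3p (0.81). These values describe the same 10 arrays, which share their scaling, and carry no test. In sheep, miR-223 lay at the floor on 3 arrays and miR-342-3p ran from -5.11 to -4.83. The sheep courses of these members are thus partly set by the floor. The other 3 members lay above the floor on too few arrays for this measure.

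Of 13 further miRNAs known from immune cells, 12 were tested, and many are also made by epithelium and stroma. In sheep against mouse 0 of 12 were higher and 1 was lower (miR-146b, at -2.41 ± 0.58, adjusted p = 0.0271 by limma), with a list median of 0.18 against 0.00 over all miRNAs. In lactation against gestation 0 of 12 passed with limma, and against gland that was not pregnant 1 did, again miR-146b, which rose by 4.30 ± 0.83 (adjusted p = 0.0434). This miRNA, known to dampen Toll-like receptor signalling, stood at -4.91, -4.35, -5.11, -5.11 and -1.39 in log2 over the sheep stages and at -3.83, -3.12, -0.85, 0.43 and 1.95 over the mouse stages. In mouse, each later day after gestation day 10 was higher for miR-146b and lower for miR-223.

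miR-146a, a relative of miR-146b, passed within mouse, at -0.28 ± 0.02 in lactation against gestation (limma, adjusted p = 0.00627), and in the difference between the species, at 0.28 ± 0.02 (adjusted p = 0.0199). It lay above the floor of -5.11 on 2 arrays, at -4.85 and -4.81 on mouse gestation days 10 and 17, so both calls rest on values next to the floor. The remaining members of that list did not pass in any of the 7 comparisons.

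Markers of other cell types moved with species and stage too, and their part in the results above was not tested. The 3 red cell miRNAs (miR-144, miR-451 and miR-486), which are carried by blood in the tissue, summed to 15.1 to 62.0% of the scale in sheep and 172 to 597% in mouse. All 3 were detected on every mouse array, and 1 or 2 of 3 on each sheep array. Most of each sum was miR-451. At sheep lactation it read 480 units, with miR-144 at 4.14 and miR-486 at 4.66, both not detected. In mouse virgin gland it read 3403 units, with miR-144 at 82.3 and miR-486 at 83.2. In mouse, that sum was 597% in virgin gland, 185% on gestation day 10, 172% on day 17, 260% on lactation day 2 and 396% on lactation day 10. The sum was thus higher at lactation day 10 than at gestation day 10, whereas miR-223 stood at 12.6% and 43.6% on those arrays. Virgin gland had the highest sum of the mouse arrays, with miR-223 at 39.0%. Between the species, the red cell sum and the fitted level of miR-223 were both lower in sheep. In sheep the red cell sum was highest at lactation (62.0%), where miR-142-3p was lowest, and lowest in cycle (15.1%), where miR-223 was highest.

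The 5 epithelial miRNAs summed to 482, 428, 292, 1137 and 995% of the scale over the sheep stages and to 168, 273, 604, 1060 and 1406% over the mouse stages. The 3 fibroblast miRNAs summed to 263, 216, 200, 92.9 and 43.9% in sheep and to 247, 267, 115, 57.1 and 26.7% in mouse. In mouse the fibroblast sum was lower on each later day after gestation day 10, as was miR-223, and 2 of the 3 fibroblast miRNAs passed as lower in lactation against gland that was not pregnant, at -2.57 and -2.99 (limma, adjusted p = 0.0434 for both). In sheep the fibroblast sum stood at 216% on gestation day 14 and 263% in cycle, days on which miR-223 stood at 2.23% and 14.4%.

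Striated muscle miRNAs were uneven between mouse arrays, with a sum of 194% of the scale in virgin gland and 75.3% at gestation day 17, and 2.01 to 3.51% on the other 3. In sheep the sum was 1.09 to 9.26%. The adipocyte sum was 68.6 to 151% in sheep and 167 to 341% in mouse, the endothelial sum 113 to 258% in sheep and 141 to 222% in mouse, and the smooth muscle sum 28.9 to 78.3% in sheep and 19.3 to 59.1% in mouse. The endothelial sum was nearly all miR-126-3p, since miR-126-5p lay under the floor on every array.

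**Figure D4:**
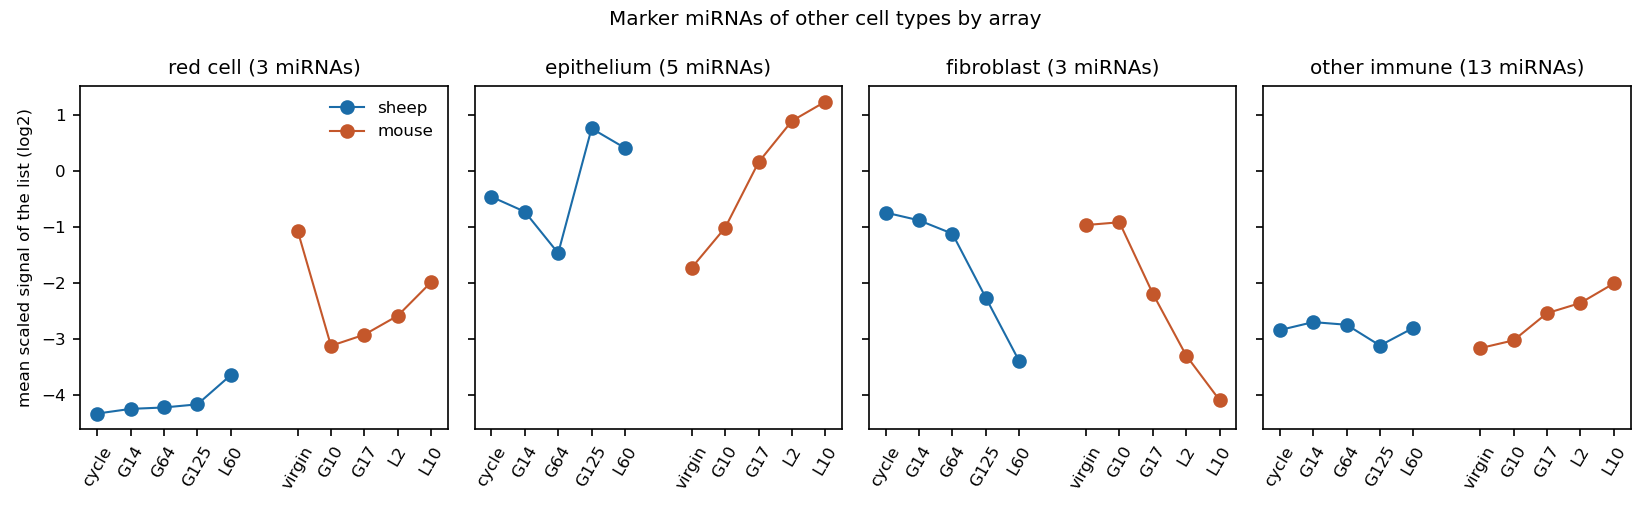
Mean scaled signal (log2) of 4 marker lists by array in stage order, with sheep in blue and mouse in orange and 1 point per array. The red cell list lies higher on all mouse arrays than on any sheep array, the epithelial list is high from gestation day 125 in sheep and higher on each later mouse array, and the fibroblast list is lowest at the last lactation array of each species.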

How the data were processed

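Scanner files of 10 arrays were used. They hold intensity values in arbitrary units, and the processed signal deposited by the authors is background-subtracted within each array and not normalized from array to array, per the file headers. Agilent Feature Extraction was version 10.5.1.1 according to those headers and 9.5 per the submitters' processing notes. The other deposited columns used are flags of 0 or 1 for detection, well above background, saturation and outlier spots, per the file headers. The value table deposited by the authors equalled Agilent's total signal times 1 constant per array, within 0.1% for 98.65 to 100% of miRNAs with a total above 50. Its column medians ran from -11.6 to 0.76, and the scale and centring behind the constants stay unknown.

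Outlier spots (189 to 320 of 11540 miRNA spots per array) were left out, and spots were averaged per probe and probes per miRNA. Arrays were scaled, floored at the highest of the arrays' 5th percentiles of detected miRNAs, and put on the log2 scale. No spot was saturated. Models were fitted with limma 3.58.1 in R 4.3.3 (lmFit and eBayes) and adjusted by Benjamini-Hochberg over 213 miRNAs at a threshold of 0.05. They were also run on simulated data without a floor, a run that cannot check miRNAs with values tied at the floor. The additive model of species and stage class (6 residual degrees of freedom) gave the species and pooled stage comparisons. The model with 6 means (4 residual degrees of freedom) gave the changes within a species and their difference, where the 1 sheep lactation array is assumed to vary like the other groups. The class not pregnant holds the cycling ewe and virgin mouse arrays. The p-values measure the spread between these arrays, since no label ties arrays to animals. The number of arrays limits the precision.

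Named miRNAs were the 6 members, the opposite strands of their hairpins, the 3 most alike in course for each member that could be compared, and miRNAs of the marker lists. Members, lists and tests were chosen with earlier results of these data known. An "at least" fold sets the brighter group's mean against the lowest signal of any single probe well above background on each dim array. Alternatives changed the scaling, background correction, source of values, probe summary, filter, floor, slide and arrays used. miRNA sequences were not used here. Of the 6 hairpins, 1 (miR-150, sheep chromosome 14) matched by name in the RefSeq table of the sheep assembly ARS-UI_Ramb_v3.0.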

Additional observations from a re-analysis of the deposited data

Results flagged for a closer look

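Each member was checked for an array standing apart from the other 4 of its species, by Dixon's gap ratio. The 5 arrays are different stages, so such a gap can be a stage as well as a single gland, and with 1 array per stage these cannot be told apart. There were 8 sets of a miRNA and a species with values above the floor on enough arrays, 16 ends were checked and 3 stood apart. Chance alone gives about 1 in 20 groups where the 5 values are free, which does not apply to miR-223 and miR-150 in sheep, each with 3 arrays tied at the floor. miR-223 on the sheep cycle array, at -2.80 in log2, lay far above the next sheep value of -4.68. miR-142-3p on the sheep lactation array, at -2.32, lay far below the next value of -0.63. miR-150 on the array of sheep gestation day 64, at -3.90, lay above the next value of -4.77.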

How the results depend on the processing

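The species calls of miR-223 and miR-342-3p held under every alternative run except normexp background correction and a floor 4 times higher. These 2 settings each left 0 of 6 called, against 3, and both raise the floor, with normexp to 23.6% of the scale. Over all miRNAs the species calls were 95 with a floor 4 times lower, 87 without scaling, 22 with a floor 4 times higher, 18 with normexp and 14 with the authors' value table, against 46. The call of miR-142-3p was also lost with slide as a term, slide 1 alone, no filter, the brightest probe and the authors' table. miR-142-5p was called higher in sheep without scaling (1.97) and with a floor 4 times lower (1.54). On slide 1 alone 1 member, miR-223, was called both in gestation and in lactation against not pregnant, where the main count was 0. In sheep lactation against gestation, leaving out each array gave 0 to 1 calls, and the 1 came without day 125.

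Some differences that passed no test changed sign, and the cause was not tested. For lactation against gestation, miR-142-3p was 0.0096 in mouse alone and -1.03 to 0.090 when each array was left out (highest without sheep lactation), and miR-342-3p was 0.033 with normexp. For gestation against not pregnant, miR-142-3p was -0.52 with the authors' table, -0.035 on slide 1 and -0.13 to 1.00 when each array was left out (lowest without mouse virgin), and miR-342-3p was -0.044 with the percentile over all miRNAs and -0.51 with the authors' table. For lactation against not pregnant, miR-142-3p was 0.60 in mouse alone and -0.93 to 0.44 when each array was left out (above 0 without sheep cycle, 0.20, and without sheep lactation). There miR-142-5p was 0.054 with the brightest probe and -0.41 to 0.24 over the left-out arrays (highest without sheep lactation), miR-150 was -0.33 without scaling, -0.26 with the lower floor and -0.11 to 0.22 over the left-out arrays (lowest without sheep cycle), and miR-342-3p was 0.12 with normexp. Within sheep, lactation against gestation gave 0.28, 0.30 and 0.15 for miR-223 with the percentile over all miRNAs, quantile normalization and the lower floor, and 0.053 and 0.044 for miR-342-3p with the first 2. Within mouse, miR-142-3p was -0.19 with the percentile over all miRNAs, -1.37 without scaling, -0.41 with slide as a term or on slide 1, and -0.41 to 0.42 over the left-out arrays (below 0 without gestation day 10 and, at -0.12, without lactation day 2), and miR-342-3p was 0.040 with normexp. The species difference in that change was -0.040 for miR-342-3p with normexp. No paired analysis was possible because nothing in the labels ties arrays of different groups to the same animal.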
